A study of Capra hircus with 12 samples.

Results

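gene13049 and MSTRG.198760 are 2 of the 24116 loci listed for black goat (Capra hircus) testis, and both were near absent from younger testes and abundant in older ones. They were chosen by their measured values: gene13049 for the largest log2 difference of puberty against prepuberty and of postpuberty against neonatal testes, and MSTRG.198760 for the second largest of the latter. Those 2 contrasts are therefore described without a test. Levels are FPKM, fragments scaled by the length of a locus and by the reads of a library, as the authors deposited them. Total RNA of wild-type (WT) testis was sequenced at 4 ages, named neonatal (titles with D3), prepuberty (D30), puberty (D90) and postpuberty (D180). Tables of 11 of the 12 samples were used, 3 for each age except puberty, which had 2 (replicates 2 and 3), while puberty replicate 1 was not analysed here. The labels do not say that replicates are different animals. The p-values below therefore reflect only how far these samples scatter, which may be technical.

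The seminiferous tubules of a testis before puberty hold mainly Sertoli cells, which nurse the germ line, and spermatogonia, its stem and precursor cells. At puberty germ cells enter meiosis as spermatocytes and then become spermatids, and these cells switch on many protein-coding genes and many long non-coding RNAs that other cells do not express. Each table holds whole tissue, so more cells of a type and more RNA per cell cannot be told apart. MSTRG identifiers are those that the assembler StringTie gives to assembled loci. No identifier matched the goat gene table of RefSeq assembly ARS1.2 (0 of 24116), so neither locus has a symbol, a position, a biotype or a sequence here, and the defining markers of testis cell types were not looked up.

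Low FPKM values take steps that correspond to whole reads, from which reads, locus lengths and the total that scales each library were recovered. gene13049 has an implied length of 313 bases and MSTRG.198760 of 838 bases, each of which could be a fraction of the true length. The smallest scaling total was 19128357 reads (neonatal replicate 3) and the largest 35614224 (puberty replicate 2). Hence 1 read of gene13049 was worth 0.0897 to 0.167 FPKM. Reads of the listed loci made up only part of the scaling total. Their share was highest in neonatal replicate 3 (25.6%) and lowest in puberty replicate 3 (13.6%). Ranks below are therefore among listed loci only. Prepuberty replicate 1 stood apart from the other prepuberty libraries in how many loci of older testes it had reads of, but not in their summed level. Of 90 other loci with no read in neonatal testes and a mean of at least 10 FPKM in the 5 older libraries, 52 (57.8%) had a read in prepuberty replicate 1, against 13 (14.4%) in replicate 2 and 16 (17.8%) in replicate 3. The summed FPKM of these loci was 1.83%, 0.552% and 1.62% of their older mean in replicates 1, 2 and 3, so by this measure replicates 1 and 3 were close and replicate 2 was lower. Results that rest on that library are given with and without it.

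gene13049 was detected in each of the 11 libraries. It stood at 0.467, 0.976 and 1.17 FPKM in neonatal replicates 1 to 3, which are 3, 6 and 7 reads. In prepuberty testes it stood at 1.55, 0.376 and 0.120 FPKM, which are 13, 3 and 1 reads. The highest of these 6 values was that of prepuberty replicate 1, and the ranges of both ages overlapped. Puberty replicates 2 and 3 held 440.7 and 439.8 FPKM (4913 and 4753 reads), and the postpuberty libraries 503, 506 and 518 FPKM (5469, 4458 and 4906 reads). Every older library thus lay above every younger one, and every postpuberty library above both puberty libraries. By FPKM it ranked 5th or 6th of the 24116 loci in each older library and between 3156th and 11743rd in the younger ones.

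MSTRG.198760 had no read in any of the 3 neonatal libraries. A group total of 0 reads allows a mean level of up to 0.0604 FPKM (3 reads over the 3 libraries, counting error only). In prepuberty replicates 1, 2 and 3 it had 18, 1 and 0 reads, or 0.801, 0.0468 and 0 FPKM, so all but 1 of its reads before puberty lay in replicate 1. Puberty replicates 2 and 3 held 133 and 158 FPKM (3972 and 4560 reads), and the postpuberty libraries 187, 238 and 188 FPKM (5442, 5604 and 4761 reads). Here too the older libraries did not overlap with the younger ones, nor postpuberty with puberty. By FPKM it ranked between 12th and 20th in the older libraries, below gene13049 in each of them.

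**Figure D1:**
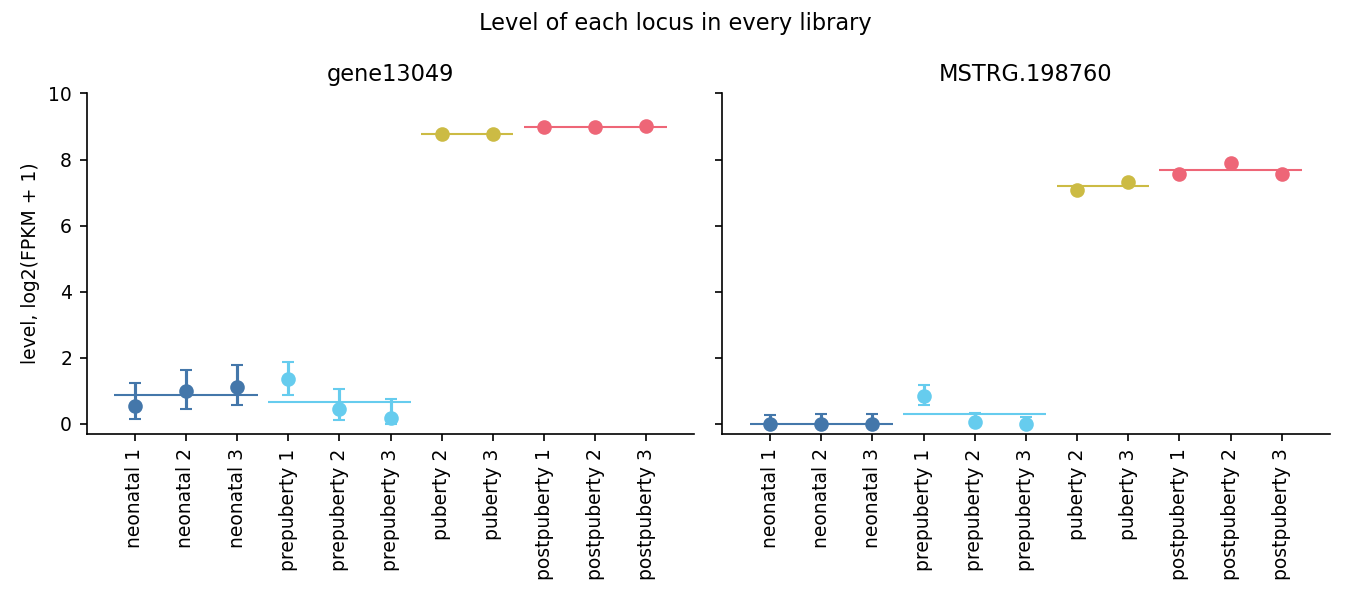
Level of gene13049 (left) and MSTRG.198760 (right) in each of the 11 libraries, as log2(FPKM + 1). Points are libraries, bars are exact 95% Poisson intervals of the recovered reads (counting error only, smaller than the points in older testes), and lines are means of an age. Both loci stay below 2 on this scale in the 6 younger libraries and above 7 in the 5 older ones.

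In order of mean level, gene13049 went from 0.682 ± 0.763 FPKM (SD, n = 3) in prepuberty and 0.871 ± 0.363 (n = 3) in neonatal testes, which did not differ beyond their spread, to 440.3 ± 0.650 (n = 2) in puberty and 509.1 ± 7.62 (n = 3) in postpuberty testes. MSTRG.198760 went from no read in neonatal and 0.283 ± 0.450 FPKM (n = 3) in prepuberty to 145 ± 17.3 (n = 2) in puberty and 204 ± 29.1 (n = 3) in postpuberty testes. On the FPKM scale, gene13049 was thus the higher of the pair at every age.

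Prepuberty against neonatal compares the low levels before puberty, and neither locus was called. Its libraries are the low arms of the choosing contrasts, so it too shares values with the choice. limma was fitted to log2(FPKM + 1) of all 11 libraries, and a locus was called at an adjusted p under 0.05 and a change of at least 1 on that scale. The neonatal mean of gene13049 was 0.871 FPKM, which is under 1 on that scale. Even a fall to no reads would thus not have been called. MSTRG.198760 had no neonatal read and would have needed a prepuberty mean of at least 1 on that scale, above each of its younger values. No conclusion is therefore drawn from the missing calls. The log2 change was -0.23 ± 0.26 (SE, limma adjusted p = 0.857) for gene13049 and 0.31 ± 0.21 (limma adjusted p = 0.510) for MSTRG.198760, while 2.07% of the 12954 tested loci were called in either direction. Prepuberty replicate 1 carried most of the prepuberty reads of both loci. Without it, the log2 changes were -0.57 for gene13049 (limma adjusted p = 0.112) and 0.03 for MSTRG.198760 (limma adjusted p = 1). Without prepuberty replicate 3, gene13049 changed sign, to 0.02 (limma adjusted p = 1).

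In prepuberty replicate 1, gene13049 stood at 0.322% and MSTRG.198760 at 0.444% of their mean level in the 5 older libraries. In the other prepuberty libraries gene13049 stood at 0.0780% and 0.0248%, and MSTRG.198760 at 0.0259% and 0%. The neonatal libraries gave gene13049 0.0969% to 0.243%, so this locus had reads in each of the 6 younger libraries. The part of whatever sets that library apart in these values was not tested.

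The step from prepuberty to puberty was the first contrast that chose the members, and its values follow as a description. The mean FPKM of gene13049 was 646-fold higher in puberty, a log2(FPKM + 1) difference of 8.13, which ranked 1st of the 12954 tested loci. MSTRG.198760 was 514-fold higher with a difference of 6.88, which ranked 6th. It was therefore not among the first 2 loci at puberty itself. Over all tested loci, limma called 23.7% higher, and in 48.4% every puberty library lay above every prepuberty library; nothing is read from the place of the members among them, since this contrast chose them. The loci that followed gene13049, at ranks 2, 3 and 4 and so ahead of MSTRG.198760, were MSTRG.337006 (a log2 difference of 7.83), gene21344 (7.23) and MSTRG.381237 (6.99).

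Without prepuberty replicate 1, the fold of gene13049 was 1778, with 4 reads left in prepuberty testes, and its log2 difference was 8.47. With so few reads this fold is imprecise, and no interval was computed for it. MSTRG.198760 then had a log2 difference of 7.16. It had 1 prepuberty read left, so its ratio is given from pooled reads per scaling total and not from mean FPKM: it was 6354, with a 95% interval of 1140 to 251002 that covers counting error only. Their ranks by log2 difference stayed at 1 and 6. The ranks also depend on the scale, since log2(FPKM + 1) favours loci that end high. By the ratio of mean FPKM, with the lower mean set to at least 3 reads over its group, gene13049 ranked 40th and MSTRG.198760 70th, or 12th and 7th without prepuberty replicate 1.

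Postpuberty against neonatal, the other contrast that chose them, gave gene13049 a 585-fold higher mean and a log2 difference of 8.11 (rank 1). MSTRG.198760 was at least 3382-fold higher, against 3 reads over the neonatal libraries, with a log2 difference of 7.67 (rank 2). By the ratio with that floor their order turned, to rank 113 for gene13049 and rank 8 for MSTRG.198760. limma called 37.6% of tested loci higher here, and in 50.0% every postpuberty library lay above every neonatal one. Next in log2 difference were MSTRG.381237 with 7.57, gene4459 with 7.45 and MSTRG.337006 with 7.36.

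**Figure D2:**
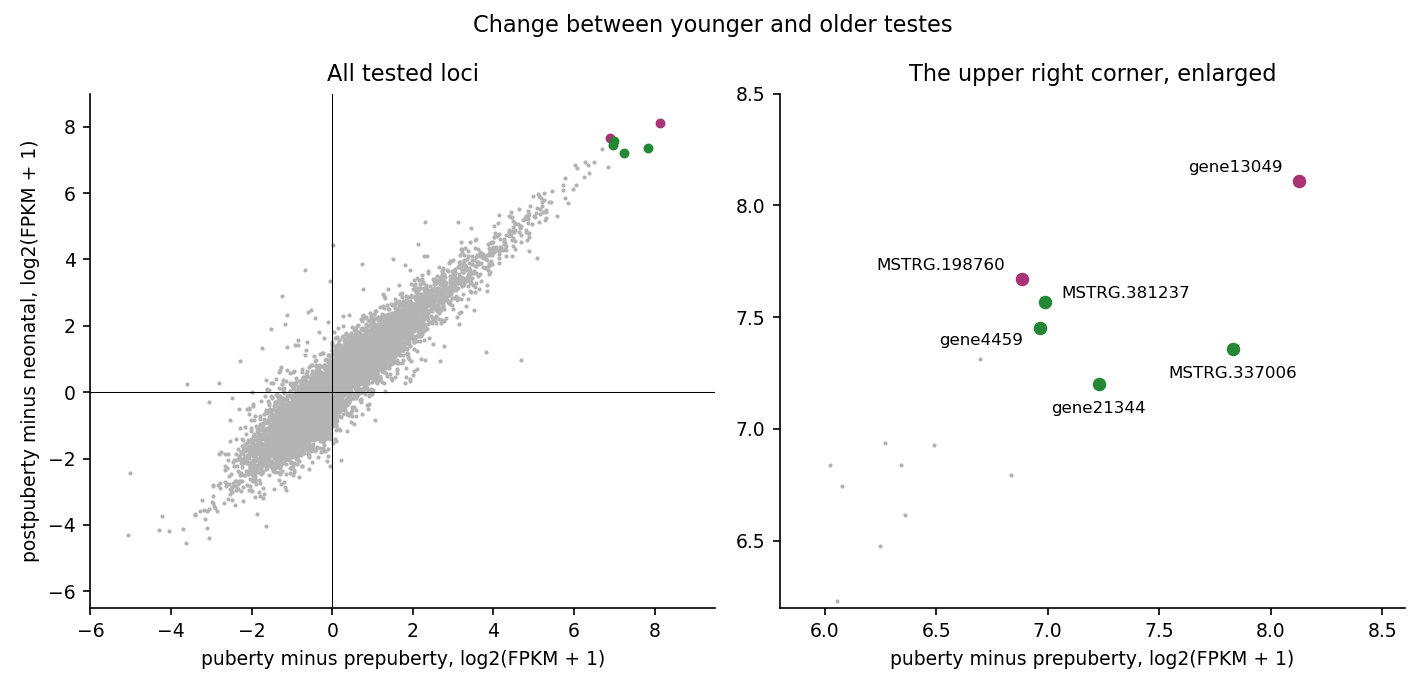
Difference of mean log2(FPKM + 1) of puberty minus prepuberty (horizontal) and postpuberty minus neonatal (vertical) for the 12954 tested loci, with the upper right corner enlarged on the right. Purple points are gene13049 and MSTRG.198760, green points the highest-ranked other loci named in the text, and grey points all others. gene13049 lies farthest out on both axes, at 8.13 and 8.11, whereas MSTRG.198760 lies among MSTRG.381237 and gene4459.

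Postpuberty against puberty asks whether the level moved once it was high. This contrast did not choose the members, but it is not independent of the choice: the postpuberty libraries are an arm of a contrast that chose both loci, which favours high values there, and the puberty libraries an arm of the one that chose gene13049. Neither locus was called, and 1.26% of tested loci were called higher. The log2 change of gene13049 was 0.21 ± 0.29 (SE, limma adjusted p = 0.754), with a ratio of mean FPKM of 1.16. That of MSTRG.198760 was 0.48 ± 0.23 (limma adjusted p = 0.213), with a ratio of 1.40. The median change of all tested loci was 0.18, so the value of gene13049 lay near it. Direction depended on the scaling for gene13049: after median of ratios scaling, where the median of all loci was 0.03, its change was -0.12 (limma adjusted p = 0.890), and that of MSTRG.198760 was 0.15 (limma adjusted p = 0.814).

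In FPKM, all 3 postpuberty libraries lay above both puberty libraries for both loci. They did so for 35.7% of tested loci, so this order is common. It did not hold as a share of the reads of all listed loci. gene13049 held 0.0915% and 0.101% of them in puberty replicates 2 and 3, and 0.0926%, 0.0971% and 0.0901% in postpuberty replicates 1 to 3. MSTRG.198760 held 0.0740% and 0.0968%, then 0.0922%, 0.122% and 0.0875%, in the same libraries. The limma standard error pools the spread of all 4 ages, including the scatter of a few reads in younger testes. Its p-values thus do not measure the spread of the puberty and postpuberty libraries alone. Within those ages the SD of log2(FPKM + 1) was 0.0176 for gene13049, or 0.0763 after median of ratios scaling, and 0.189 for MSTRG.198760. With the 5 older libraries alone, an exact two-sided permutation test gave p = 0.2 for each locus. The p is 2 times the smaller tail, and in that form 0.2 is the smallest that 3 libraries against 2 can give.

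The FPKM ratio of gene13049 to MSTRG.198760 within a library is free of any factor that scales the whole library. It was 3.31 and 2.79 in puberty replicates 2 and 3, and 2.69, 2.13 and 2.76 in postpuberty replicates 1 to 3. The mean ratio went from 3.05 to 2.53, with both puberty libraries above all postpuberty libraries. On the log2 scale the ratio was 0.27 lower in postpuberty testes (a difference of -0.27; exact two-sided permutation p = 0.2, the smallest possible in the same form). Puberty replicate 3 and postpuberty replicate 3 were close, and without puberty replicate 2 the difference was -0.15, without postpuberty replicate 2 it was -0.16.

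The members differed in how closely libraries of one age agreed. The SD of log2(FPKM + 1) within puberty and postpuberty (3 degrees of freedom) was 0.0176 for gene13049 and 0.189 for MSTRG.198760. Counting reads alone would give an SD of 0.0207 for gene13049 and 0.0208 for MSTRG.198760, which had similar read numbers. The measured SD was thus 0.851 times the counting SD for gene13049 and 9.08 times for MSTRG.198760. With 3 degrees of freedom these ratios are imprecise, and no test was made of them. They also rest on the recovered reads. If an implied length is a fraction of the true one, the reads are more and the counting SD is smaller. The SD of gene13049 might then not lie below it. Of the 25 loci with a mean of at least 100 FPKM in the older libraries, a limit set after values were seen, gene13049 had the smallest SD, the next being 0.0620, and it was the only 1 below its counting SD. MSTRG.198760 ranked 14th, beside a median SD of 0.182 and a median of 9.94 times the counting SD, so its spread was ordinary among these loci. With a limit of 60 FPKM (50 loci), gene13049 still had the smallest SD, but the next was 0.0253, so the gap to the next locus depends on the limit. The agreement of gene13049 is tied to the authors' scaling: after median of ratios scaling its SD was 0.0763 (rank 2 of 25, and rank 3 of 50 with the lower limit), against 0.246 for MSTRG.198760 and a median of 0.233.

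**Figure D3:**
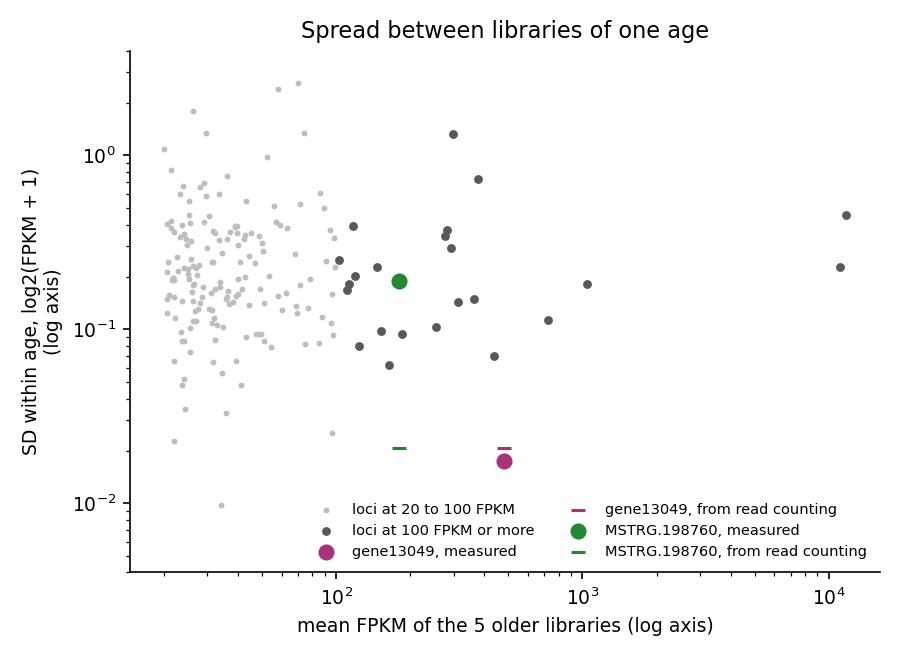
SD of log2(FPKM + 1) between libraries of one age, over puberty and postpuberty, against the mean FPKM of the 5 older libraries, both on log axes, for loci with a mean of at least 20 FPKM. Circles are measured values (light grey under 100 FPKM, dark grey from 100 FPKM). Coloured dashes are the SD that counting alone gives the 2 loci at their recovered reads. gene13049 lies at 0.0176, under its dash at 0.0207, whereas MSTRG.198760 lies at 0.189 amid the other abundant loci.

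Many loci had a pattern like that of the members, which is 6 low and 5 high values over the 11 libraries. Over the 11 libraries, 471 of 12953 other tested loci (3.64%) had a Pearson r above 0.99 with gene13049 in log2(FPKM + 1), and 547 (4.22%) with MSTRG.198760. The members had an r of 0.9974 with each other, which placed MSTRG.198760 25th among the loci most like gene13049. These correlations are a description over libraries that share ages, totals and the authors' scaling.

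The 5 loci most like gene13049 by r were MSTRG.381237 (0.9985), MSTRG.384157 (0.9984), MSTRG.337007 (0.9984), MSTRG.152850 (0.9984) and gene4459 (0.9982). All ran at lower levels in puberty testes, from 22.8 FPKM for MSTRG.384157 to 160 FPKM for MSTRG.381237. The 3 loci closest in level, by the root mean square difference of log2(FPKM + 1), were gene21344 (0.56), MSTRG.337006 (0.71) and gene14810 (0.72). gene21344 went from 355 ± 29.9 FPKM (SD, n = 2) in puberty to 285 ± 30.3 (n = 3) in postpuberty testes and MSTRG.337006 from 373 ± 162 to 220 ± 8.998. Both means were lower in postpuberty than in puberty testes. gene14810 went from 227 ± 14.7 to 274 ± 20.3 FPKM, higher in postpuberty testes as gene13049 was. These differences between loci were not tested.

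The 5 loci most like MSTRG.198760 by r were MSTRG.343820 (0.9999), MSTRG.299092 (0.9998), MSTRG.138743 (0.9994), MSTRG.381237 (0.9993) and gene4459 (0.9992). The last 2 are also among the 5 most like gene13049. By level the closest were MSTRG.381237 (a root mean square difference of 0.15), gene4459 (0.17) and MSTRG.299092 (0.21). Reads before puberty lay mostly in prepuberty replicate 1 for these loci too, and the part of that library in the likeness was not tested. MSTRG.343820 and gene4459 each had 9 reads in that library and 0 in the other 5 younger ones, and MSTRG.299092 had 16 there and 1 in the others, beside 18 and 1 for MSTRG.198760. MSTRG.381237 had 11 and 3, and MSTRG.138743 had 98 and 62. MSTRG.299092 went from 126 ± 17.4 FPKM (SD, n = 2) in puberty to 160 ± 27.3 (n = 3) in postpuberty testes.

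Loci next to the members in identifier number gave values that did not enter the choice. Whether numbers follow the genome is not given in the sources used here. Of the 10 numbers within 5 of MSTRG.198760, 2 were listed and both passed the filter on low values. They passed only through older libraries, since younger values reached at most 0.161 FPKM for MSTRG.198761 and 0.0884 FPKM for MSTRG.198764. The filter thus favoured a rise, and the p-values below do not allow for that. MSTRG.198761 (implied length 3015 bases) stood at 0.0667 ± 0.0505 FPKM (SD, n = 3) in neonatal and 0.0578 ± 0.0895 (n = 3) in prepuberty testes. It had 5.73 and 22.3 FPKM in puberty replicates 2 and 3, and 17.2, 32.4 and 28.6 FPKM in the postpuberty libraries. It rose at puberty by 3.57 ± 0.42 on the log2 scale (SE, limma adjusted p = 2.37e-05) and was 4.62 ± 0.37 higher in postpuberty than in neonatal testes (limma adjusted p = 7.69e-07). Its puberty value turns on 1 library: without puberty replicate 3 the log2 change was 2.67, and without puberty replicate 2 it was 4.46.

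MSTRG.198764 (implied length 1152 bases) was lower throughout. It had 2 reads in the 6 younger libraries, both in neonatal replicate 2, then 1.32 and 1.84 FPKM in puberty and 1.70, 2.50 and 3.44 FPKM in postpuberty testes. It rose at puberty by 1.36 ± 0.18 on the log2 scale (limma adjusted p = 6.79e-05) and over the whole span by 1.76 ± 0.16 (limma adjusted p = 2.31e-06). In these contrasts 23.7% and 37.6% of all tested loci were called higher. Beside that, 2 of 2 neighbours called is a count too small to set apart from the rest. It also holds only loci that passed the filter through older testes, so nothing is read from it. Of the 10 numbers around gene13049, only gene13044 was listed. It reached at most 0.414 FPKM in any library, was too low to be tested, and had 11, 11, 5 and 9 reads at the 4 ages from neonatal to postpuberty.

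**Figure D4:**
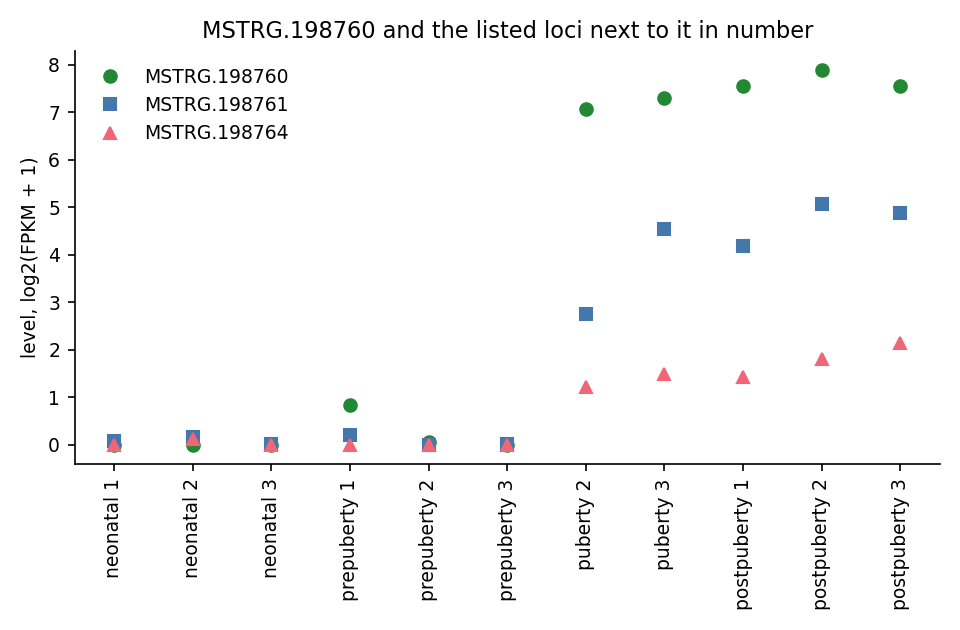
Level of MSTRG.198760 (circles), MSTRG.198761 (squares) and MSTRG.198764 (triangles) in each of the 11 libraries, as log2(FPKM + 1). All 3 loci lie above their younger values in the 5 older libraries, in the order MSTRG.198760, MSTRG.198761, MSTRG.198764, and puberty replicate 2 is the lowest older library for each.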

How the data were processed

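Per the labels' protocols, TRIzol was used for extraction and a kit for long non-coding RNA for the libraries. The submitters' processing notes name HISAT2 2.1.0 and StringTie 2.1.1. Genome build, annotation, counter, strand setting and filters were not given in the sources used here. The authors deposited 1 FPKM value per locus and library, without a header.

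Reads were recovered as whole multiples of the smallest FPKM step, within 0.02 reads, for 24116 of 24116 loci. The recovery and the limma fit were run on simulated data, with outcomes not given here. The limma simulation held smaller folds than those of the members, and only loci with more prepuberty reads. limma 3.58.1 (R 4.3.3) was fitted to log2(FPKM + 1) of all 11 libraries, with 1 mean per age and a variance trend. Loci were tested if 2 or more libraries had 1 FPKM or more (12954, both members included). p-values are two-sided with Benjamini-Hochberg adjustment over all of them. Alternatives changed pseudocount, filter, scaling (median of ratios, quantile, TPM), block, trend and the libraries used. TPM here is FPKM scaled to the same sum over the listed loci in each library. The voom fit, the exact tests on single loci, the alternatives for loci of neighbouring numbers and the values without prepuberty replicate 1 for folds and ranks were added after values were seen. The members and lists were chosen with earlier results of these data known. Named loci are the members, for each the 5 with the highest r and the 3 closest in level, and listed loci within 5 identifier numbers. The 3 highest-ranked loci other than the members in each choosing contrast are named too.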

Additional observations from a re-analysis of the deposited data

How the results depend on the processing

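Neither locus was called in prepuberty against neonatal or in postpuberty against puberty under any of 20 alternatives (limma adjusted p from 0.0793 to 1). Before puberty the main fit could not have called a fall of gene13049 to no reads, so nothing is read from the missing calls there. Only the sign of gene13049 changed, with median of ratios scaling after puberty (-0.12) and without prepuberty replicate 3 before it (0.021; -0.57 to 0.021 with 1 library left out). In the choosing contrasts, a value is listed as moved if it shifted by at least the larger SD of the ages compared. In puberty against prepuberty, gene13049 moved from 8.13 to 9.63 with a pseudocount of 0.1, 10.03 with TPM and 9.78 with voom on recovered reads. With median of ratios it was 8.65, a shift that stayed within its larger SD. MSTRG.198760 moved from 6.88 to 9.26, 10.38 with voom, 9.79 with TPM, 7.38 with median of ratios and 6.19 with quantile normalization. In postpuberty against neonatal, gene13049 moved from 8.11 to 9.12 (pseudocount 0.1), 8.41 (median of ratios), 8.55 (quantile), 10.13 (TPM) and 9.15 (voom), and MSTRG.198760 from 7.67 to 10.99 (pseudocount 0.1), 7.04 (quantile), 11.70 (TPM) and 12.71 (voom); a smaller pseudocount weighs low levels more by construction. The SD of gene13049 in older testes moved from 0.0176 to 0.0763 with median of ratios. Of the 5 loci most like gene13049, 0 were among the closest by Spearman rho and 3 with a pseudocount of 0.1; for MSTRG.198760 these were 1 and 3. MSTRG.198761 and MSTRG.198764 kept their calls in all 20 alternatives of both contrasts. Both loci passed the main filter only through older libraries, so nothing is read from these calls. Of 15 same-numbered pairs of libraries, 0 deviated together at r above 0.1 (range -0.12 to 0.05). With the replicate block, the log2 change after puberty was 0.15 for gene13049 and 0.41 for MSTRG.198760. The block ended no call of MSTRG.198761 or MSTRG.198764, and the other loci named beside the members were not followed.

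Over all tested loci, prepuberty against neonatal gave 268 calls, but 641 with a pseudocount of 0.1, 170 with median of ratios, 1092 with TPM, 564 with voom and 19 with only those 6 libraries. Puberty against prepuberty gave 4748, and 9708, 9474 and 9754 with pseudocount 0.1, TPM and voom. Postpuberty against puberty gave 181, and 343 with pseudocount 0.1, 116 with median of ratios, 63 with quantile normalization, 399 with TPM, 159 to 482 with 1 library left out (482 without puberty replicate 2) and 0 in limma with only those 5 libraries (2514 at an unadjusted p under 0.05; 265 by voom with all libraries). Rises and falls were 107 and 161, 3067 and 1681, 163 and 18, and 4874 and 2297 in the 4 contrasts in order of age, with the whole span last; with median of ratios they were 120 and 50, 4413 and 999, 85 and 31, and 5497 and 1387, with quantile normalization 138 and 69, 2716 and 2694, 36 and 27, and 3097 and 3177, and with TPM 994 and 98, 6140 and 3334, 380 and 19, and 7211 and 2294. The cause was not tested.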
